A study of Mus musculus with 12 samples.

Results

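Sinusoidal and vascular endothelial genes of the liver were examined in whole-liver RNA from obese mice given ethionine and from obese mice given chow alone. The set holds 10 genes chosen by name for their known endothelial roles: the sinusoidal receptors Stab1, Stab2, Lyve1, Clec4g and Fcgr2b, the pan-endothelial gene Pecam1 and the vessel gene Vwf, and the secreted signals Rspo3, Wnt2 and Wnt9b. They are 10 of the 56205 genes in the count table, and all 10 were among the 13416 genes kept after filtering on low counts. All 12 mice were ob/ob mice of a C57BL/6J background, which lack leptin and become obese, and were young adults when treatment began. The 6 mice of the fibrotic group received DL ethionine, an ethyl analogue of methionine, with standard chow, and the 6 mice of the FLO group received the same chow without it. The labels do not give a single treatment: 0.165% ethionine taken with drinking water over 2 weeks stands beside a 0.15% injection. The study's methods give a shorter treatment in drinking water. The group keeps its labelled name here, although Col1a1, the main fibrillar collagen gene, was at 23.3 CPM (library-size-scaled counts) in fibrotic and 27.1 CPM in FLO livers (adjusted p = 0.611). RNA of each whole liver was extracted with Trizol and made into 1 poly(A)-selected library, so endothelial transcripts were measured within RNA that comes mostly from hepatocytes.

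Liver sinusoids are lined by a fenestrated endothelium without a tight basement membrane, which clears macromolecules, immune complexes and matrix fragments from blood through scavenger receptors. Stabilins, the hyaluronan receptor Lyve1, the lectin Clec4g and the Fc receptor Fcgr2b belong to this machinery, and several of them mark the midlobular sinusoid. Endothelial cells around the central vein secrete Wnt2, Wnt9b and the Wnt amplifier Rspo3, which sustain the pericentral programme of neighbouring hepatocytes. Vwf, a clotting glycoprotein stored in endothelial granules, is found mainly in larger vessels, where it is more abundant than in healthy sinusoids.

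RefSeq promoter windows of build GRCm38.p6 were found for 6 of the 10 genes, and the 250 bases before the start site were searched on both strands for 4 motifs that do not overlap one another. The GATA factor motif AGATAA was held by 9.99% of 32851 mouse promoters and by 0 of the 6 windows. The SOX factor motif ATTGTT was held by 9.42% of promoters and by 0 of the 6. The E-box CACGTG was held by 6.02% of promoters and again by 0 of the 6. The ETS factor motif CAGGAAG was held by 10.8% of promoters and by 1 of the 6 windows, that of Stab1, 117 bases before the start. The windows of 3 genes that end at the annotated gene start are given here, to set the most abundant sinusoidal lectin and the scavenger receptor with the match beside a CpG-rich Wnt promoter, with the match in capitals.
Stab1, chr14:31168642-31168891, minus strand: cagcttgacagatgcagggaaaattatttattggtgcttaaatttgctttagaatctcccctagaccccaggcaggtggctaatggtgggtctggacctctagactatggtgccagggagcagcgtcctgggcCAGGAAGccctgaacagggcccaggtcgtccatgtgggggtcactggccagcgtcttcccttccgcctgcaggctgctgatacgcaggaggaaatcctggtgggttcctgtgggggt
Clec4g, chr8:3720652-3720901, minus strand: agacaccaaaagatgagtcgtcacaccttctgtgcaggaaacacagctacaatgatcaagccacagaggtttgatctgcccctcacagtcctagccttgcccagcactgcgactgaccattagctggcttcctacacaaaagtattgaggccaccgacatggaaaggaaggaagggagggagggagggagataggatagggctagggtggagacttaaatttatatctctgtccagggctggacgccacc
Wnt9b, chr11:103749822-103750071, minus strand: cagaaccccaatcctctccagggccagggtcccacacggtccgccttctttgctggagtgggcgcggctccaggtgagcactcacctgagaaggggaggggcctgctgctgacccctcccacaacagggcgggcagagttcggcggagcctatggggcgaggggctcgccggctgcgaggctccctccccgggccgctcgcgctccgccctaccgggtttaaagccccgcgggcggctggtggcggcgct
GC content was 57.2% for Stab1, 52.0% for Clec4g and 72.0% for Wnt9b, and the windows held 5, 4 and 22 CpG dinucleotides respectively.

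Total counts ranged from 17815568 to 20352675 in the fibrotic and from 18275320 to 24814263 in the FLO libraries. FLO replicate 3 held 3773 counts of Xist and 4 of Ddx3y, while the other 11 libraries held 0 to 4 counts of Xist and 556 to 977 of Ddx3y. That is the pattern of female tissue, although the labels state males only, and values of the 10 genes without this library are given where a test moves past or short of a limit. TMM normalization factors averaged 1.07 in the fibrotic and 0.941 in the FLO libraries. Levels are given as CPM on TMM-scaled library sizes, and fold changes are log2 of fibrotic over FLO. Adjusted p-values come from the edgeR quasi-likelihood test with Benjamini-Hochberg adjustment over all tested genes, and a gene is named as called when its adjusted p was at most 0.01 and its log2 fold change lay beyond 0.5 in either direction. The p-values measure the spread between mice, 1 library each.

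Compared per kilobase of the longest annotated transcript, Clec4g was the most abundant of the 10 genes, at 28.3 ± 2.87 CPM per kb (SD, n = 6) in FLO livers. Fcgr2b at 9.28, Stab1 at 7.55, Pecam1 at 6.45, Lyve1 at 5.69 and Stab2 at 4.79 CPM per kb followed. Vwf stood at 2.22, Wnt2 at 1.74, Rspo3 at 0.899 and Wnt9b at 0.484 CPM per kb. The order of means was the same in fibrotic livers. In FLO livers the ranges of neighbours in this order were separate only after Clec4g, after Stab2 and after Wnt2, so the scavenger receptors and Pecam1 between Fcgr2b and Stab2 were not separated from their neighbours by the spread between mice.

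**Figure D1:**
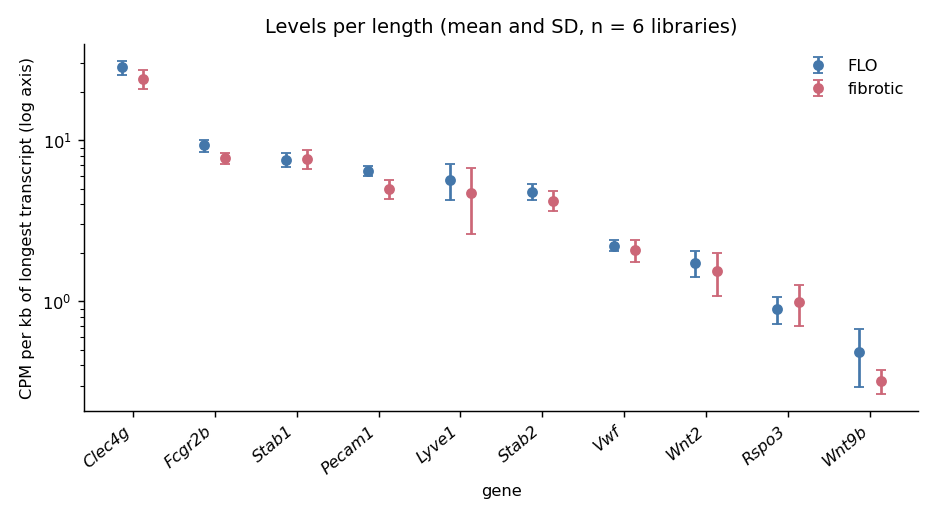
Mean level of each gene in CPM per kb of its longest transcript on a log axis, with SD over 6 libraries, FLO in blue and fibrotic in red. Clec4g lies highest at 28.3 CPM per kb in FLO livers and Wnt9b lowest at 0.484 CPM per kb.

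The first question was whether the sinusoidal scavenger genes differed between ethionine-treated and chow-fed livers. None of the 5 was called, and their fold changes lay between -0.28 and 0.02 on the log2 scale. The level in whole-liver RNA is what was measured, so fewer cells of a type and less RNA per cell cannot be told apart.

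Stab1 (ENSMUSG00000042286, chromosome 14, 31139013 to 31168641, minus strand, GRCm38), a scavenger receptor for modified proteins and matrix fragments, had a lowest, median and highest level of 49.6, 63.3 and 69.6 CPM in fibrotic and 53.4, 61.1 and 68.1 CPM in FLO libraries. The ranges overlapped almost entirely. The log2 fold change was 0.02 (SE 0.10, 95% interval -0.19 to 0.22, adjusted p = 0.899), and the sign flipped under other scalings, to -0.0045 with RLE and -0.011 with upper quartile normalization.

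Its paralogue Stab2 (chromosome 10, 86841198 to 87008025, minus strand), the main clearance receptor for circulating hyaluronan, spanned 28.3 to 41.3 CPM with a median of 34.5 in fibrotic and 33.9 to 46.2 CPM with a median of 39.7 in FLO libraries. The 3 lowest libraries were fibrotic replicates 1, 2 and 4, and the ranges overlapped above them. This gave a log2 fold change of -0.18 (SE 0.10, interval -0.40 to 0.04, adjusted p = 0.155).

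Lyve1 (chromosome 7, 110850607 to 110863239, minus strand), which binds hyaluronan and is also made by lymphatic endothelium, had the widest spread among the sinusoidal genes. It ran from 5.87 through a median of 12.7 to 20.5 CPM in fibrotic and from 10.99 through 15.8 to 22.5 CPM in FLO libraries. Fibrotic replicates 1, 2 and 3 lay below all FLO libraries, and fibrotic replicates 4 and 5 lay among the highest. The coefficient of variation was 43.9% in fibrotic and 24.8% in FLO libraries, and the log2 fold change of -0.28 had an SE of 0.27 (interval -0.87 to 0.31, adjusted p = 0.408).

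Clec4g (chromosome 8, 3707064 to 3720651, minus strand), the sinusoidal C-type lectin also known as LSECtin, ranged from 30.8 to 41.0 CPM with a median of 32.4 in fibrotic and from 36.4 to 48.3 CPM with a median of 40.1 in FLO libraries. Fibrotic replicates 1, 2, 3 and 5 lay below every FLO library, and replicates 4 and 6 lay within the FLO range. Clec4g had a log2 fold change of -0.23 (SE 0.10, interval -0.44 to -0.03), with an adjusted p of 0.0561.

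Fcgr2b (chromosome 1, 170958617 to 170976547, minus strand), the inhibitory IgG receptor through which sinusoidal cells take up immune complexes, had a minimum of 24.0, a median of 27.8 and a maximum of 30.8 CPM in fibrotic libraries. The FLO values were 29.5, 33.4 and 36.8 CPM. All 6 fibrotic libraries lay below the FLO median, and only fibrotic replicate 6 reached into the FLO range. Fcgr2b had a log2 fold change of -0.26 (SE 0.08, interval -0.43 to -0.09, adjusted p = 0.0114), short of both limits of a call. The adjusted p was under 0.01 without fibrotic replicate 6 (0.00787), FLO replicate 1 (0.00927) or FLO replicate 3 (0.00785). In those fits the fold change stayed within the limit. Without fibrotic replicate 2 the adjusted p rose to 0.0287. With libraries scaled to their totals the log2 fold change was -0.08 with an adjusted p of 0.483.

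The pan-endothelial adhesion molecule Pecam1 gave the clearest difference of the 10 genes. Pecam1 (chromosome 11, 106654217 to 106750628, minus strand), also present on leukocytes and platelets, had a lowest, median and highest level of 14.0, 17.7 and 20.54 CPM in fibrotic and 20.61, 21.9 and 25.1 CPM in FLO libraries. The 2 groups did not overlap, although the highest fibrotic and the lowest FLO library nearly met. The log2 fold change was -0.37 (SE 0.10, interval -0.57 to -0.17), with an adjusted p of 0.00422. The change was below the fold limit, so Pecam1 was not called. Leaving out fibrotic replicate 2 gave an adjusted p of 0.0109, leaving out FLO replicate 4, the highest library, gave 0.0120, and with libraries scaled to their totals the log2 fold change was -0.19 with an adjusted p of 0.219.

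Vwf (chromosome 6, 125546774 to 125686679, plus strand) overlapped between groups throughout. It ran from 13.9 through 19.2 to 21.3 CPM in fibrotic and from 17.03 through 19.7 to 21.1 CPM in FLO libraries, with fibrotic replicates 2 and 6 the lowest. For Vwf the log2 fold change was -0.09 (SE 0.11, interval -0.32 to 0.14, adjusted p = 0.504), and it turned to 0.10 when libraries were scaled to their totals.

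The second question was whether the central-vein Wnt signals differed. Rspo3 (chromosome 10, 29452416 to 29535867, minus strand), which raises Wnt signalling by binding Lgr receptors and removing the ligases Rnf43 and Znrf3 from the membrane, held only 39 to 91 counts in a library. It ranged from 2.19 to 4.26 CPM with a median of 2.90 in fibrotic and from 2.13 to 3.50 CPM with a median of 2.77 in FLO libraries. The groups overlapped, and fibrotic replicates 4 and 6 were the highest of all. Its log2 fold change was 0.13 (SE 0.20, interval -0.30 to 0.57, adjusted p = 0.603), and without fibrotic replicate 4 it was 0.02.

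Wnt2 (chromosome 6, 17988940 to 18030585, minus strand), a secreted Wnt ligand of sinusoidal and central-vein endothelium, held 33 to 97 counts in a library. Levels spanned 1.54 to 4.64 CPM with a median of 3.71 in fibrotic and 2.64 to 4.94 CPM with a median of 3.97 in FLO libraries. Fibrotic replicate 4 was the lowest of all and the others overlapped. The log2 fold change was -0.18 (SE 0.22, interval -0.65 to 0.28, adjusted p = 0.507), and without fibrotic replicate 4 it was -0.02.

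Wnt9b (chromosome 11, 103727364 to 103749821, minus strand), the Wnt ligand most restricted to central-vein endothelium, had the largest fold change among the 10 genes with TMM scaling but also few counts, from 20 to 85 in a library. It ranged from 1.02 through a median of 1.45 to 1.72 CPM in fibrotic and from 1.36 through 1.89 to 3.64 CPM in FLO libraries. All fibrotic libraries lay below the FLO median and the lowest 2 FLO libraries lay within the fibrotic range. The log2 fold change was -0.60 (SE 0.25, interval -1.13 to -0.07, adjusted p = 0.0537). The highest FLO library was replicate 3, the one with the sex-linked mismatch. Without it the log2 fold change was -0.39 with an adjusted p of 0.169, the highest of the fits without 1 library. The lowest adjusted p of those fits was 0.0271, without FLO replicate 5 (log2 fold change -0.70). With all libraries it was 0.0494 in DESeq2, 0.0754 in limma-voom and 0.198 with library totals.

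**Figure D2:**
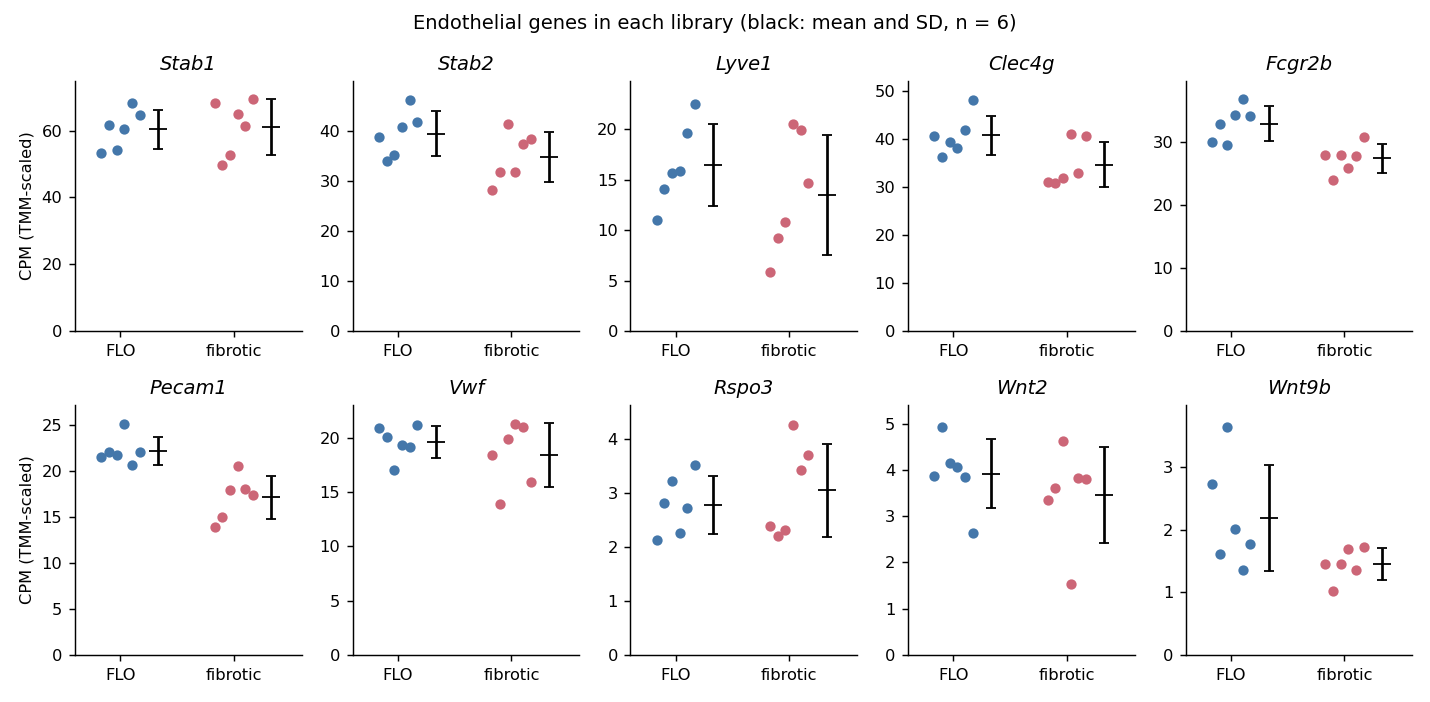
Level of each of the 10 genes in CPM in every library, FLO in blue and fibrotic in red, with the mean and SD (n = 6) in black. Groups overlap in every panel but that of Pecam1, whose highest fibrotic library is at 20.54 CPM and lowest FLO library at 20.61 CPM.

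Of the 10 genes, 0 were called in edgeR, while 29.9% of all tested genes were (15.9% higher and 14.0% lower in fibrotic livers). DESeq2 and limma-voom also called 0, and 4 of the 10 had an unadjusted p under 0.05 in each of the 3 tools. At an adjusted p of 0.01 without a fold limit 1 of 10 passed (38.9% of all genes, 18.6% lower), and at an adjusted p of 0.05 without one 2 of 10 passed (52.1% of all genes, 24.8% lower), both lower. Groups did not overlap for 1 of 10, against 30.4% of all tested genes (15.1% lower). The median log2 fold change of the 10 was -0.21, with 8 below zero, beside a median of 0.03 over all tested genes, of which 48.3% were below zero. The 95% interval lay within 0.5 on either side of zero for 5 genes and within 1 for 9.

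The small negative values depended on the scaling. With RLE or upper quartile normalization, and in DESeq2, 9 of the 10 genes lay below zero and 4 passed an adjusted p of 0.05, against 8 and 2 with TMM. Scaled to library totals, the median log2 fold change of all genes moved by 0.18, from 0.03 to 0.20, and that of the 10 genes from -0.21 to -0.03, with 7 below zero and 0 at an adjusted p of 0.05. The calls over all genes were then 3137 higher and 1233 lower, against 2139 and 1873 with TMM.

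To read each gene against other endothelial transcripts of the same liver, libraries were also scaled by 30 general endothelial genes that include none of the 10. On that scale the median log2 fold change of the 10 genes was 0.16, with 8 above zero, while the median of all genes was 0.39. Of the 10 genes, 0 were called, against 42.2% of all genes (36.3% higher). At an adjusted p of 0.05 without a fold limit 3 of 10 passed and 62.0% of all genes did. These were Stab1 at 0.39 (SE 0.09, adjusted p = 0.00146), Vwf at 0.27 (adjusted p = 0.0291) and Rspo3 at 0.50 (adjusted p = 0.0337), and Pecam1 stood at -0.01. Vwf and Rspo3 were above 0.05 when any of 5 and any of 7 of the 12 libraries respectively was absent (up to 0.0662 and 0.0869). With only 6 of the 30 genes as the reference Stab1 was at 0.28 (adjusted p = 0.0215), Vwf at 0.16 (0.205) and Rspo3 at 0.38 (0.112).

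**Figure D3:**
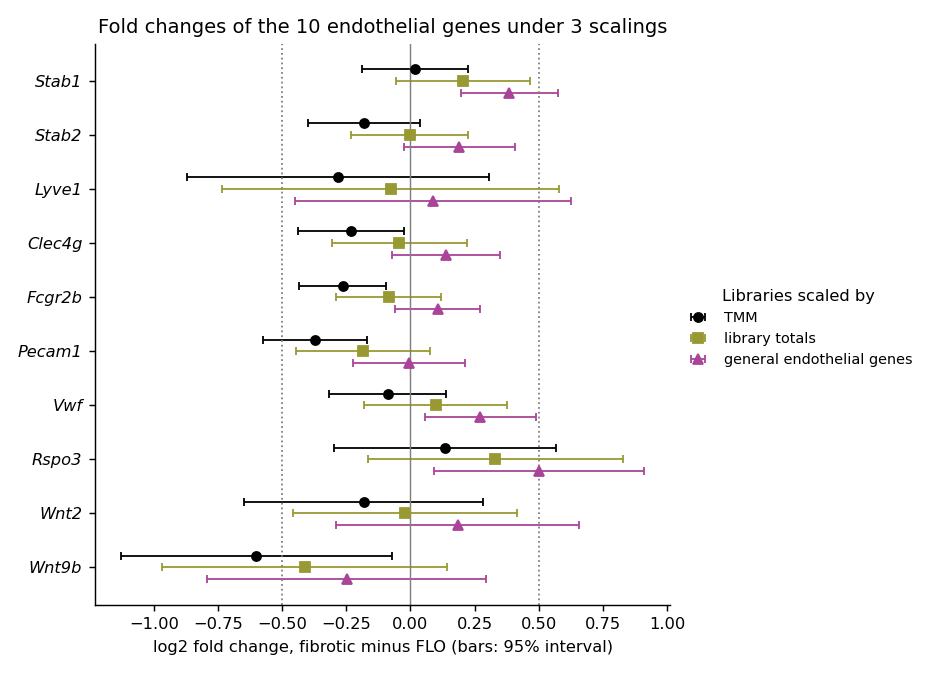
Log2 fold change of each gene, fibrotic minus FLO, with its 95% interval under scaling by TMM, library totals or general endothelial genes (dotted lines at 0.5 on either side of zero). Stab1 moves from 0.02 to 0.39 between the first and last scaling, and Vwf changes sign with each of the other 2 scalings.

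For every list count from here on, the share to compare is that over all tested genes. With TMM scaling 29.9% of them were called, 15.9% higher and 14.0% lower, and groups did not overlap for 30.4% (15.1% lower). The general endothelial genes themselves stood lower in fibrotic livers with TMM scaling. Of the 30, 7 were called lower (9 without FLO replicate 3) and 0 higher, with a median of -0.42, and 27 were below zero. Their summed level was 372 to 423 CPM in fibrotic and 478 to 524 CPM in FLO libraries, without overlap, but it overlapped when scaled to library totals, at 358 to 478 against 444 to 482. The tight-junction gene Cldn5 fell from 9.13 ± 2.26 to 5.13 ± 0.534 CPM (log2 fold change -0.83, adjusted p = 0.000368), and Kdr, the main Vegf receptor, fell from 34.5 ± 4.42 to 23.1 ± 1.53 CPM (-0.58, adjusted p = 6.07e-05), each as mean and SD with n = 6. The mucin Emcn fell by 0.72 (adjusted p = 0.00312). With library totals Cldn5 alone of the 7 was still called, at -0.66, whereas Kdr was at -0.40 and Emcn at -0.53 (adjusted p = 0.0287). Myct1 at -0.65 lost its call without fibrotic replicate 6 or FLO replicate 2, and Ushbp1 at -0.56 lost it when any of 6 libraries was absent. The cadherin Cdh5, the defining junction gene of endothelium, was not called at -0.28 (adjusted p = 0.0257), nor was Tek, the angiopoietin receptor, at -0.22 (adjusted p = 0.118), and Eng, the most abundant of the list, stood at 98.4 and 111 CPM (-0.17).

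Other sinusoidal genes were called in both directions, as was the case over all tested genes (15.9% higher and 14.0% lower). Of 23 tested, 4 were called higher and 1 lower, with a median of -0.02. The coreceptor Nrp1 rose from 22.7 ± 1.81 to 42.9 ± 7.44 CPM (log2 fold change 0.92, adjusted p = 9.1e-06), and the transcription factor Tfec rose by 1.47, from 1.53 to 4.22 CPM. The chemokine Ccl24 rose by 1.30, but only from 0.503 to 1.25 CPM, with no more than 41 counts in any library. Bmp6, the signal to hepatocytes that sustains hepcidin, rose from 5.12 to 7.73 CPM (0.59, adjusted p = 0.00366), but without fibrotic replicate 4 it was at 0.49 and not called. F8, clotting factor VIII, which is made in sinusoidal endothelium, fell from 11.2 to 6.87 CPM (-0.71, adjusted p = 4.68e-05). Bmp2 was at 0.14 (adjusted p = 0.459) and Gata4, the sinusoidal identity factor, at 0.09 (adjusted p = 0.421).

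Among 13 tested portal and arterial genes 4 were called lower and 0 higher, with a median of -0.34. Cxcl12, the chemokine for Cxcr4, fell from 171 to 106 CPM (log2 fold change -0.69, adjusted p = 2.26e-05), and the matrix protein Ltbp4 fell from 63.3 to 39.9 CPM (-0.67, adjusted p = 0.000129). Ephb4 and Ntn4, at -0.52 and -0.51, lost the call when any of 5 and any of 4 libraries respectively was absent, and the count of the list ranged from 2 to 4. With library totals only Cxcl12 was called, at -0.50. Of 11 central-vein genes 1 was called higher and 1 lower, with a median of 0.02, and both calls, Ptgs1 at 0.54 and Lhx6 at -0.80, were lost when any of 9 and any of 8 of the 12 libraries respectively was absent, so that the count ranged from 0 to 2. Of 7 lymphatic endothelial genes 1, Nrp2, was called, lower by 1.10 (adjusted p = 4.61e-07), with Prox1, the defining lymphatic factor that hepatocytes also make, at -0.42, and Pdpn at no more than 21 counts in any library.

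Genes of capillarization and activation, by which sinusoids lose fenestrae and take on features of ordinary capillaries, were called higher for 2 and lower for 3 of 21 tested, with a median of -0.04. The genes called lower were Icam2, Kdr and the ligand Vegfa, of which Kdr and Vegfa are also counted in other lists. The list joins markers with a ligand and its receptor, so its counts give no direction for capillarization. The tetraspanin Cd9 rose from 23.7 to 43.4 CPM (log2 fold change 0.87, adjusted p = 0.00097), the adhesion molecule Icam2 fell from 3.81 to 2.20 CPM (-0.79, adjusted p = 0.00128), and Icam1, at 0.62, lost its call when any of 9 of the 12 libraries was absent. Plvap, the diaphragm protein that rises in capillarized sinusoids, was at 79.2 ± 11.2 and 81.5 ± 10.7 CPM in fibrotic and FLO libraries (-0.04, adjusted p = 0.769), and Cd34 was at -0.20 (adjusted p = 0.498).

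Endothelium receives Vegf and angiopoietin signals from neighbouring cells. Of 12 tested genes, of the Vegf and angiopoietin families with Hgf, Gdf2 and Bmp10, 2 were called higher and 2 lower, with a median of 0.18. Vegfa fell from 69.5 ± 9.23 to 31.3 ± 6.86 CPM (log2 fold change -1.15, adjusted p = 4.31e-06) and Vegfb from 14.7 ± 1.12 to 5.21 ± 0.506 CPM (-1.50, adjusted p = 2.37e-08), both without overlap between groups. Angpt1, the Tek agonist, rose by 1.85 (adjusted p = 6.19e-05) from 0.679 to 2.53 CPM. Angptl4 rose by 0.57, and by 0.48 without FLO replicate 3, when it was no longer called. Hgf, a stellate and endothelial growth factor for hepatocytes, was at 0.60 (adjusted p = 0.094).

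The Wnt pathway around Rspo3, Wnt2 and Wnt9b was read at 3 levels, with lists that share some genes. Of 32 other ligands, secretion factors and secreted inhibitors only 10 passed the count filter, and 1, the Wnt-cleaving inhibitor Notum, was called, falling from 24.2 to 5.92 CPM (log2 fold change -2.04, adjusted p = 1.69e-05), while Wls, which carries Wnt proteins to the surface, was at 0.20 (adjusted p = 0.357). Without fibrotic replicate 4 the count was 3, with Porcn at 0.66 and Wnt5b at 0.52 also called. Of 14 tested receptors and ligases 3 were called higher and 1 lower. Lgr4, a receptor for R-spondins, rose from 39.4 to 66.9 CPM (0.76, adjusted p = 2.53e-05), Fzd6 rose by 1.02, and the ligase Rnf43 fell by 0.71 (adjusted p = 0.00035). The related ligase Znrf3, at 0.54, lost its call when any of 7 libraries was absent, and Lgr5 was at -0.61 (adjusted p = 0.017).

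Pericentral hepatocyte genes, known to depend on these endothelial Wnt signals, were called lower for 8 and higher for 2 of 18, with a median log2 fold change of -0.58. Notum, Rnf43 and Znrf3 are among these calls and were already counted above. Tcf7 at -0.95 lost its call without FLO replicate 2 or 3, and Cyp27a1 at -0.56 without fibrotic replicate 4 or FLO replicate 5. Neither was called with library totals. Rgn fell from 696 to 17.6 CPM (-5.30, adjusted p = 9.11e-09), the cytochrome Cyp1a2 from 342 to 91.6 CPM (-1.90, adjusted p = 4.76e-06) and the glutamate transporter Slc1a2 from 141 to 44.1 CPM (-1.68, adjusted p = 0.000115). The Wnt target Sp5 rose by 1.01 (adjusted p = 0.0032). Glul, the glutamine synthetase of the innermost pericentral layer, stood at 0.03 (adjusted p = 0.854), and Axin2, a direct feedback target, at 0.72 (adjusted p = 0.0122). Bmp outputs had a median of 0.60 over 9 genes, 2 of them called, both higher. The 2 below zero, neither called, were Smad6 at -0.46 (adjusted p = 0.0051) and Hamp2 at -1.86 (adjusted p = 0.0668). Hamp2 ranged from 22.4 to 485 CPM in FLO and from 11.7 to 67.3 CPM in fibrotic libraries. Atoh8 rose from 20.7 to 46.1 CPM (1.16, adjusted p = 3.32e-06) and Id1 by 1.498 (adjusted p = 0.00255, not called without the low-count filter), whereas Hamp, which encodes hepcidin, was at 0.35 (adjusted p = 0.156).

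**Figure D4:**
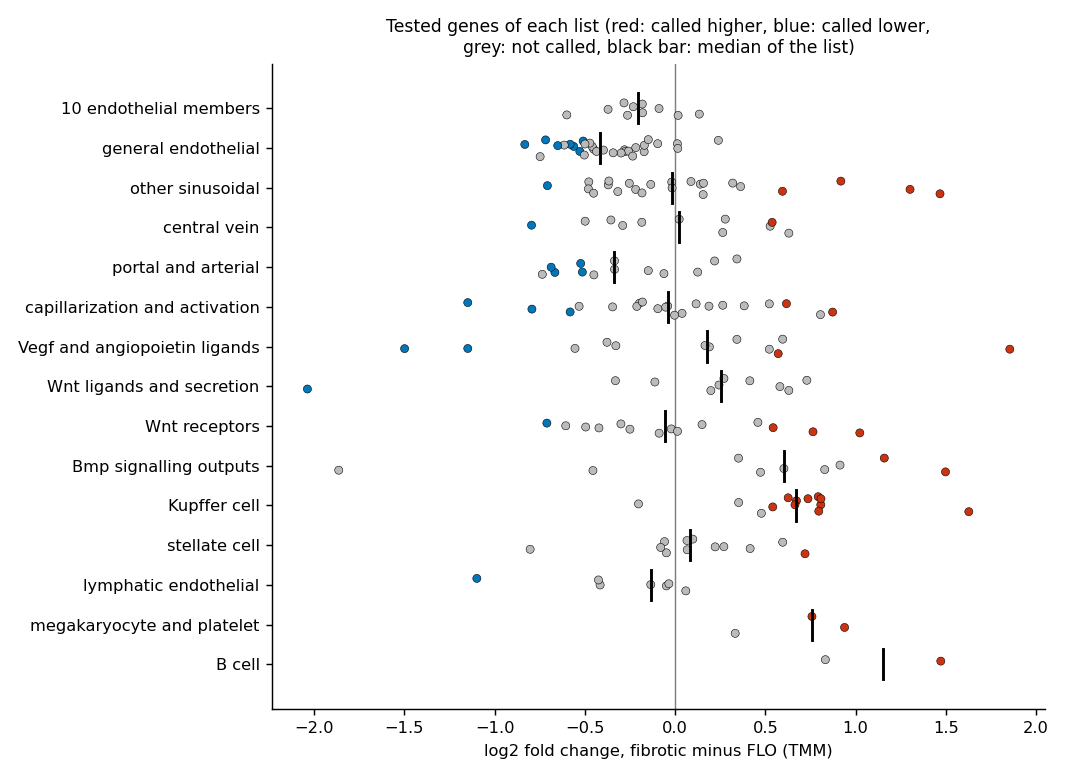
Log2 fold change, fibrotic minus FLO with TMM scaling, of each tested gene by list, with called genes in red (higher) or blue (lower), the others in grey and the list median as a black bar. The 10 endothelial genes hold no called gene, and the general endothelial list has its median at -0.42, with 7 genes called lower, of which 6 are not called under library totals.

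Markers of other cells that share some of these genes also moved. Of 13 Kupffer cell genes 10 were called higher and 0 lower, and their summed level was 384 to 772 CPM in fibrotic and 314 to 387 CPM in FLO libraries. Marco at 1.63 lost its call when any of 6 libraries was absent. Csf1r rose by 0.80 and Adgre1 by 0.81, while Clec4f, the defining mouse Kupffer marker, was at 0.54 and lost its call without fibrotic replicate 1 or FLO replicate 6. Kupffer cells and other macrophages also carry Fcgr2b, Stab1 and Lyve1, and the part of these cells in those values was not tested. Nor was their part tested in the values of the other sinusoidal genes, such as Tfec and Ccl24, or of Cd9. B cells carry Fcgr2b too, and of 10 B cell genes 2 were tested and 1, Ighm, was called higher (1.47), with the defining genes Cd79a, Cd79b and Ms4a1 at no more than 11, 18 and 6 counts in any library. The summed B cell level was 14.3 to 35.7 CPM in fibrotic and 6.37 to 15.1 CPM in FLO libraries. Platelets and megakaryocytes carry Vwf and Pecam1, and of 10 such genes 3 were tested and 2 called higher, Itgb3 at 0.94 and Itga2b at 0.76, with a summed level of 13.7 to 18.8 against 8.37 to 10.1 CPM. Pf4 was at 0.33 (adjusted p = 0.317), and Ppbp and Gp9 held no more than 9 and 4 counts in any library. The part of B cells and platelets in the values of Fcgr2b, Vwf and Pecam1 was not tested. Of 12 stellate cell genes 1, Lrat, was called (0.72), and it lost the call when any of 8 libraries was absent. Of 11 hepatocyte genes 2 were called higher and 3 lower, and Alb was at 52922 and 65410 CPM in fibrotic and FLO libraries (adjusted p = 0.0803).

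Within groups the 10 genes varied together only in part. Over the 12 libraries, as deviations of log2 CPM from the group mean, 34 of 45 pairs had a Pearson r above zero and 8 an r above 0.5, with a median of 0.23. The points share library scaling, so these values are a description. Without fibrotic replicates 4 and 2, the libraries that deviated most, the median was 0.08. The highest was 0.80 for Lyve1 with Rspo3, followed by 0.76 for both Clec4g with Rspo3 and Stab1 with Fcgr2b and 0.71 for Lyve1 with Pecam1. The stabilins Stab1 and Stab2 had an r of 0.07. Wnt2 had a median r of -0.35 with the other 9 genes, but a median Spearman rho of -0.12 and, without fibrotic replicate 4, its lowest library, a median r of -0.09. With Clec4g its r was -0.70, its rho -0.64 and its r without that library -0.57.

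**Figure D5:**
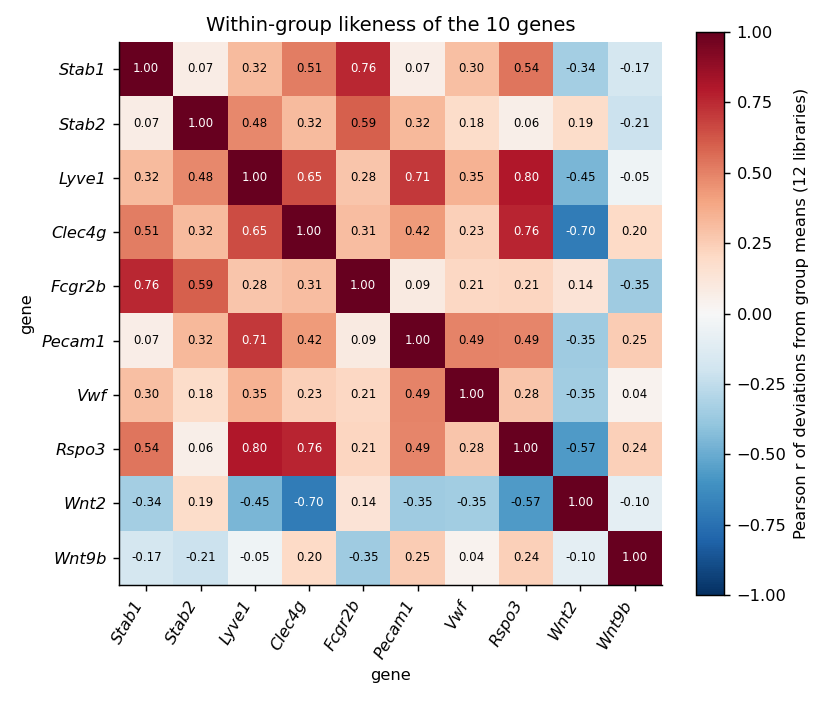
Pearson r between the 10 genes over 12 libraries, as deviations of log2 CPM from the group mean, from -1 (blue) to 1 (red). Most cells are pale or red, Lyve1 with Rspo3 reaches 0.80, and the Wnt2 row is mostly blue, down to -0.70 with Clec4g.

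Among 11347 other tested genes (11348 for Wnt9b), the gene most like each member on the same measure over the 12 libraries was Fcer1g for Stab1 (r = 0.98, rho = 0.97), Sec11a for Stab2 (0.91, 0.89), Vps26a for Lyve1 (0.90, 0.90) and Kctd6 for Clec4g (0.94, 0.89). It was Mcoln1 for Fcgr2b (0.91, 0.90), Sf3b2 for Pecam1 (0.94, 0.91) and Gnai2 for Vwf (0.89, 0.84). For the Wnt signals it was Vsig10 for Rspo3 (0.91, 0.94), Snx33 for Wnt2 (0.93, 0.90) and Rpusd3 for Wnt9b (0.94, 0.91). Second in order were Evl for Stab1, Tie1 for Stab2, Sptlc2 for Lyve1, Ncbp2 for Clec4g and Adat2 for Fcgr2b. For the others they were Ppcs for Pecam1, Loxl2 for Vwf, Mustn1 for Rspo3, Tfb1m for Wnt2 and Spryd3 for Wnt9b. The second genes had r from 0.87 (Loxl2) to 0.94 (Evl) and rho from 0.70 (Tfb1m) to 0.94 (Ncbp2). These values describe the order over 12 libraries and carry no test.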

How the data were processed

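Whole-liver poly(A) RNA of 12 mice was sequenced, 1 library per mouse. Per the labels, reads were handled with bcl2fastq and STAR 2.7.3a on mm10, with quantification by PISCES according to the study's methods. The mouse annotation and whether counting used strand are not given in the sources used here. The authors deposited raw whole-number counts per Ensembl gene, without normalization. Symbols came from a name table that matched 51745 identifiers, and identifiers without a symbol held 0.0587% of counts. Groups and replicate numbers were read from sample titles. The 10 genes and all gene lists were chosen with earlier results of these data known.

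Counts were tested in R 4.3.3 with edgeR 4.0.16 (quasi-likelihood, robust fit, TMM, filterByExpr, Benjamini-Hochberg). Each of the 10 genes was also examined with an exact permutation test (two-sided) of mean log2 CPM (prior count 2) over 924 assignments, with a smallest possible p of 0.00216. The exact permutation p was 0.00216 for Pecam1, 0.00649 for Fcgr2b, 0.0390 for Clec4g and 0.0519 for Wnt9b, and 0.115 to 0.916 for the other 6 genes. Libraries of a group differed beyond sampling noise in all 30 pairs (smallest chi-square per degree of freedom 11.1). Gene positions and lengths came from GENCODE M21 and promoters from RefSeq, both on GRCm38.

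Besides the 10 genes, the text names in each list the called genes with the 5 largest fold changes and the 3 others with the highest CPM (not all of them are printed), and some fixed genes. Tried as alternatives were normalization by RLE, by upper quartile or by TMM less the 50 most counted genes, 2 other count filters, DESeq2 1.42.0, limma-voom (limma 3.58.1), a non-robust fit, looser thresholds, a replicate block, and each library left out in turn. Scaling to library totals was added after the TMM factors had been seen, and the likeness of Wnt2 without fibrotic replicate 4 after its values had been seen. Tested on simulated fibrotic and FLO counts of 13298 genes, 194 of them changed, the fit recovered 69.4% of 2-fold and 94.8% of 4-fold changes. Of its calls 0.625% fell on unchanged genes, and a second simulation without any changed gene gave 0 calls. Far fewer genes were changed there than the 29.9% called in these data, so the choice of scaling was not tested by it. The precision of a value includes counting error, which is largest for Rspo3, Wnt2 and Wnt9b.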

Additional observations from a re-analysis of the deposited data

Results flagged for a closer look

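Pecam1 in FLO replicate 4 lay apart from the other FLO libraries, at 25.1 CPM where the next highest library was at 22.1 CPM, a gap of 0.668 of the group's whole range, above Dixon's critical value for a group of 6. It was the only such value among the 20 groups of 6 tested for the 10 genes, and chance flags about 1 in 20 groups. Without this library the log2 fold change of Pecam1 was -0.34 and its edgeR adjusted p was 0.0120, over the limit of 0.01.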

How the results depend on the processing

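The sign of Stab1 turned with the setting, to -0.0045 with RLE, -0.011 with upper quartile normalization and -0.0026 with DESeq2, and between -0.022 and 0.070 when a library was left out. Vwf turned to 0.098 with library totals. At an adjusted p of 0.05 without a fold limit 6994 genes in all, 40 of the 76 tested genes of 4 endothelial lists and 2 of the 10 genes passed, Fcgr2b (-0.26) and Pecam1 (-0.37), against 4012, 18 and 0. With library totals the 4 lists held 9 called genes, 6 higher and 3 lower, against 5 higher and 13 lower with TMM. Leaving out a library gave 3798 to 4093 genes in all, 14 (without fibrotic replicate 2) to 21 (without FLO replicate 3) in the 4 lists and 0 of the 10. Relative to general endothelial genes, Lyve1 turned to -0.029 with 6 reference genes and lay between -0.072 and 0.24 without a library, and Pecam1 between -0.063 and 0.050. In those fits 0 of the 10 genes were called. No pairing by replicate number was seen: deviations of same-numbered libraries had correlations from -0.162 to 0.104, and 0 of 6 correlated best with their own number. A weaker pairing could be missed with 6 such values. The replicate block called 3780 genes, 3694 of them shared, and 0 of the 10. With it the adjusted p of Lyve1 went from 0.408 to 0.0780 and that of Fcgr2b from 0.0114 to 0.0273. Under the block Id1 (1.31, adjusted p = 0.0121) and Bmp6 (0.59, adjusted p = 0.0140) were not called, and Vwf and Rspo3 relative to general endothelial genes had adjusted p-values of 0.0626 and 0.0600. At 20 to 97 counts in a library, depth limits Rspo3, Wnt2 and Wnt9b.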
